A study of Mus musculus with 2 samples.

Results

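The 38 genes described here belong to the 4 mammalian Hox clusters: 10 of HoxA, 10 of HoxB, 9 of HoxC and 9 of HoxD. Their probe sets were found by symbol in the platform annotation, taking only probe sets assigned to a single gene. This gave 48 probe sets for 33 of the 38 genes, out of 34945 such probe sets for 18193 genes in all. Hoxa6, Hoxb8, Hoxc11, Hoxc12 and Hoxd4 had no probe set of their own. A further 3 probe sets were left out because the annotation gives each to 2 neighbouring Hox genes, Hoxd3 with Hoxd4 or Hoxb7 with Hoxb8. RNA came from mouse embryonic stem (ES) cells labelled as a constitutive Eed knockout (Eed KO) and from mouse ES cells labelled as its control, with 1 Affymetrix MOE430 2.0 array each. The labels do not give the alleles, the parent lines, the clone, the passage or the culture conditions of either. With 1 array in each group no SD, standard error or p-value could be computed, and each difference below is one between these 2 arrays.

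Hox genes encode homeodomain transcription factors that give cells along the head-to-tail axis their positional identity. Each cluster is read in order: genes at the 3′ end, with low paralog numbers, are active early and in the hindbrain and neck, and genes at the 5′ end, with high numbers, are active later in the trunk, tail, limb tips and genital tubercle. In ES cells the clusters are silent and are textbook targets of Polycomb repressive complex 2 (PRC2), which methylates histone H3 at lysine 27. Eed is the PRC2 subunit that binds this mark, so the comparison asks what Hox transcripts look like in cells labelled as its knockout.

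On these arrays each transcript is read by 1 or more probe sets, pools of short oligonucleotides whose brightness is condensed into 1 signal in arbitrary units. Signals of different probe sets are not comparable as levels. Signals under a floor of 61.3, the 40th percentile of all signals on both arrays, were set to that floor before a fold was taken, so a fold with a raised value on one side is a minimum, written "at least". Measured genes are those above the floor on either array, and a difference of 2-fold or more counted as higher or lower. Where a gene had several probe sets, the one with the highest average of both log2 signals stood for it.

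Promoter windows of 22 members were matched by symbol in a RefSeq table of build GRCm38.p6, each from 250 bases before to 50 after a transcription start. Those of Hoxd13, Hoxd8 and Hoxa11 are shown because these are 3 of the 4 genes that reached 2-fold, and because PRC2 in mammals binds at DNA rich in CpG dinucleotides. The windows lie on the plus strand at chr2:74667975-74668274 (Hoxd13), on the plus strand at chr2:74704365-74704664 (Hoxd8) and on the minus strand at chr6:52245761-52246060 (Hoxa11). They run 5′ to 3′ along the gene, the start site is base 251, and capitals mark each CpG.
Hoxd13: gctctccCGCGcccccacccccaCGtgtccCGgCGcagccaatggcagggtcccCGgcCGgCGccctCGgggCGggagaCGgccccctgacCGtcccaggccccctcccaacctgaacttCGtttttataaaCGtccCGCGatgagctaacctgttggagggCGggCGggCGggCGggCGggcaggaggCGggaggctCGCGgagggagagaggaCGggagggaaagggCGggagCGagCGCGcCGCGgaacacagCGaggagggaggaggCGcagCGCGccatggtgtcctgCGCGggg
Hoxd8: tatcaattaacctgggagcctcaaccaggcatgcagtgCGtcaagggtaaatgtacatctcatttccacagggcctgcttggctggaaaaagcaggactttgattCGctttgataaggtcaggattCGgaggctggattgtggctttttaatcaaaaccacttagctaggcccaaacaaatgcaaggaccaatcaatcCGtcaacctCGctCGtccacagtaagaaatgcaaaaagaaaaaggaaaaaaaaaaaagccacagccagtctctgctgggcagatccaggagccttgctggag
Hoxa11: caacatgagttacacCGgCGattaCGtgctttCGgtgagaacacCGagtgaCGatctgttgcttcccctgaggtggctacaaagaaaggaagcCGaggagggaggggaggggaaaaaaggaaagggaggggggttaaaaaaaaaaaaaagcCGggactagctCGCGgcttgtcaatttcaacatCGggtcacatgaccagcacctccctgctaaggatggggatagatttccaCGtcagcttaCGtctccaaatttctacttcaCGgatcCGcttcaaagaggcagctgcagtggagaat

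The 3 windows differ in CpG content. That of Hoxd13 held 37 CpG, at an observed over expected ratio of 0.90, that of Hoxa11 held 15 at 0.79, and that of Hoxd8 held 6 at 0.37. Over the 24 windows of the 22 members the median was 14.5 CpG (range 4 to 45), against 7 over all 32851 windows of the table. A ratio above 0.6, a common limit for CpG islands, was met by 12 of the 24 (50%) and by 35.8% of all windows. The letters TATAAA, on either strand, stood in 4 of the 24 windows (16.7%) and in 13.6% of all. In the Hoxd13 window they began 124 bases before the start site on the gene's strand, overlapping a match on the other strand. CAAT on either strand stood in 20 of the 24 (83.3%) and 72.8% of all. The letters AGGTCA repeated after any 5 bases, a form bound by retinoic acid receptors, were found on either strand in 0 of the 24 windows and in 3 of all. These matches describe letters in short windows only.

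Hox signals were higher on the Eed KO array than on the control array in most members, and low on both. Without a floor, 42 of the 48 probe sets read higher in the Eed KO, against 58.1% of all 45037 non-control probe sets. By gene, 30 of 33 read higher, against 59.0% of all named genes, with a median log2 ratio of 1.10 against 0.17. Of the 33 genes, 8 were above the floor on both arrays, 13 on the Eed KO array only, 0 on the control array only and 12 on neither. At least 2-fold higher were 4 genes, Hoxd13, Hoxd8, Hoxa11 and Hoxb2, and 0 were at least 2-fold lower. Of all measured genes 10.8% were at least 2-fold higher and 3.27% lower. The 13 genes found over the floor in the Eed KO alone had to show a ratio above 1, so the 21 measured genes are not used as a count of direction. Among all 25 genes under the floor in the control, 1 (Hoxb2) reached 2-fold, against 5.34% of such genes. The 8 genes above the floor in the control carry no such condition. All 8 read higher in the Eed KO, against 53.9% of genes above the floor in the control, and 3 of the 8 reached 2-fold, against 9.5%. These shares include many brighter genes. Of all probe sets with a geometric mean signal of 61.3 to 122.6, 65.2% read higher and 17.7% at least 2-fold higher without a floor. From 122.6 to 245.2 it was 63.5% and 15.4%. Except for Hoxa5, the 8 genes lie within these ranges. Hoxa5 stands among the 8 by an _x_at probe set, a kind that can be shared between genes. By its other probe set it was under the floor in the control (27.3). In the control, Hoxd13 (61.6) and Hoxa3 (61.8) were barely above the floor.

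**Figure D1:**
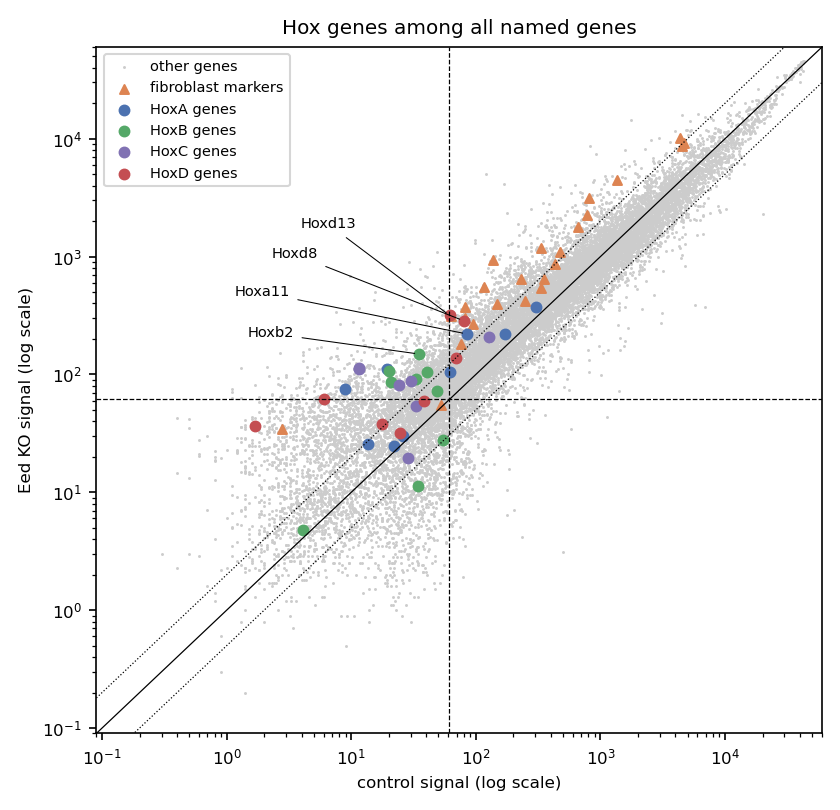
Signal on the control array (x axis) and on the Eed KO array (y axis) of each named gene, both on log scales. Dashed lines mark the floor of 61.3, the solid line equal signal and the dotted lines 2-fold. The Hox genes lie at the low end of both arrays, 30 of 33 of them above the line of equal signal. Of the fibroblast markers, 22 of 24 were above the floor on both arrays.

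The arrays themselves differed at low signal. Non-control probe sets had a median of 87.1 on the control array and of 107.8 on the Eed KO array, although both arrays had been scaled to a mean of 500.00. Of all measured genes, 1483 reached 2-fold upward and 451 downward. After equalising the medians these became 873 and 1034, and the median log2 ratio of measured genes went from 0.12 to -0.16. Eed itself, by its main probe set, went from 10101.3 to 11455.8. The labels do not place the disruption, so this probe set checks nothing. Of 12 ES cell markers all were above the floor on both arrays, 1 was at least 2-fold higher (Klf4) and 0 were lower, or 1 (Utf1) with equal medians.

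Fibroblast markers, which ES cells largely lack and feeder or differentiated mesenchymal cells express, moved with the Hox genes. Of 22 measured markers 16 reached 2-fold upward in the Eed KO and 0 downward, against 10.8% and 3.27% of all measured genes. Their median log2 ratio was 1.46. Signals of all 24 markers summed to 20365.5 on the control array and 48496.6 on the Eed KO array. These sums are led by the brightest probe sets, of Acta2, Tagln and Sparc, and do not measure a share of cells. Of the 8 defining markers, Col1a1, Col1a2, Col3a1, Dcn, Postn, Thy1 and Twist1 were above the floor on both arrays and 1.97- to 4.76-fold higher in the Eed KO, and Lum was under it on both (52.1 and 54.8). Dcn had a log2 ratio of 0.02 when its probe sets were averaged. Under the other scalings 13 to 17 of the 22 were called higher, against 6.35% to 8.07% of all measured genes. Fibroblasts from the trunk and limbs transcribe Hox genes, and the part of these cells in the Hox signals was not tested. More cells with Hox transcripts and more Hox RNA per cell cannot be told apart in these samples.

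**Figure D2:**
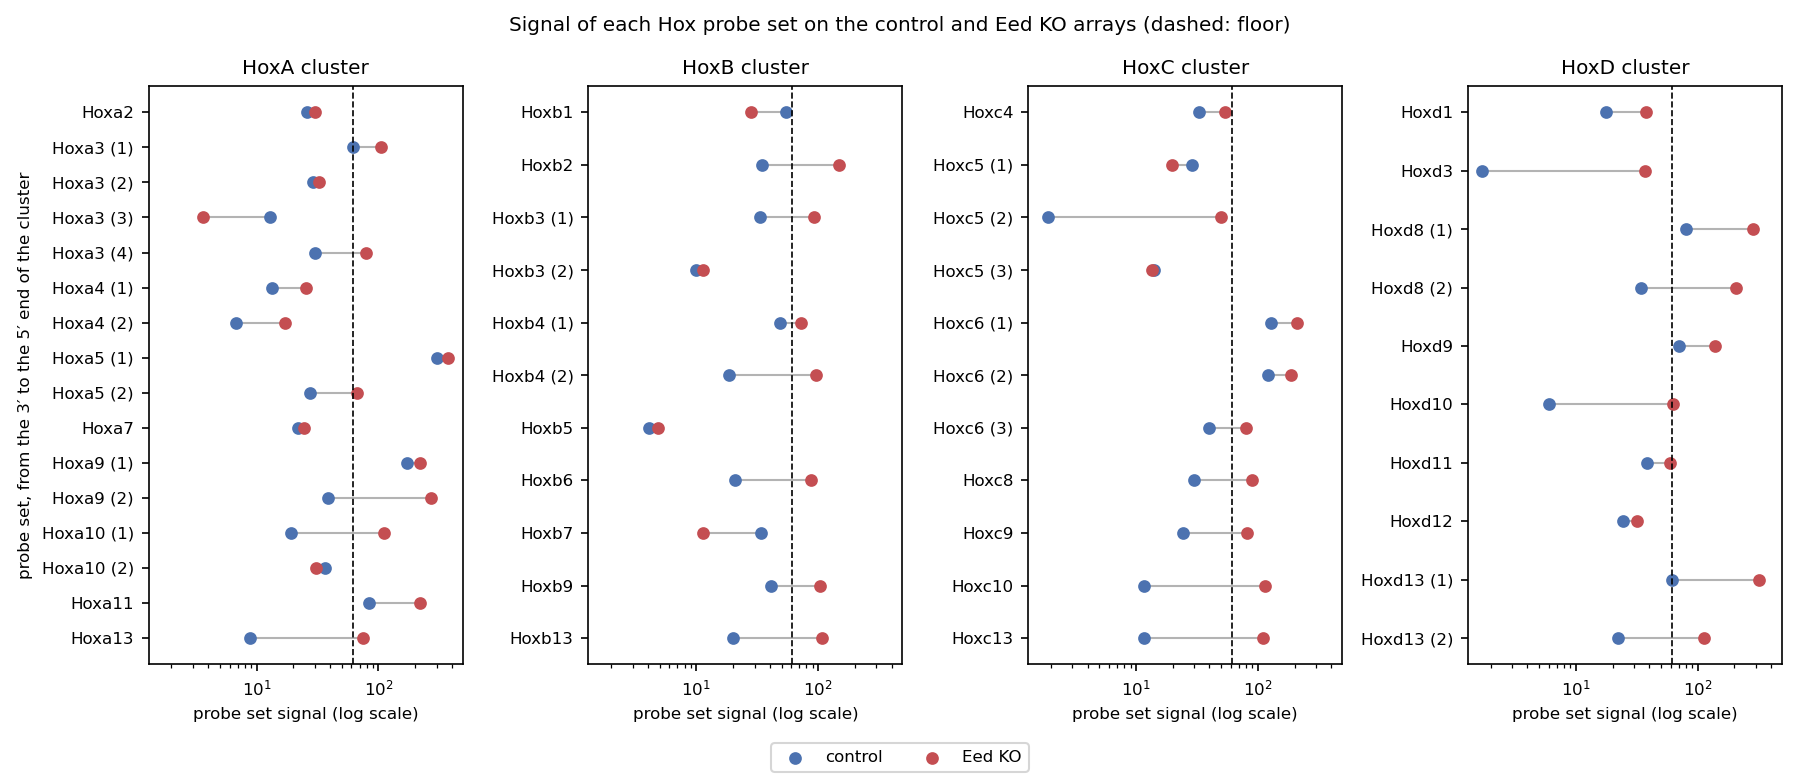
Signal of each of the 48 Hox probe sets (x axis, log scale) on the control array (blue) and the Eed KO array (red), by cluster and from the 3′ to the 5′ end. Numbers in brackets separate probe sets of 1 gene, the first being the one that represents it, and the dashed line is the floor of 61.3. In 42 of 48 the red point lies to the right, and 29 red and 9 blue points lie above the floor.

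Probe set by probe set, 29 of the 48 were above the floor in the Eed KO, against 62.6% of all probe sets, and 9 in the control, against 57.4%. The Hox share was thus near the array's in the Eed KO and far under it in the control. Without a floor 26 of the 48 read at least 2-fold higher, against 20.6% of all, and 2 (of Hoxa3 and Hoxb7) at least 2-fold lower, against 10.3%. The 20.6% depends on signal. Grouped by the geometric mean of both signals, 3 of 7 Hox probe sets up to 15.3 read 2-fold higher, against 38.4% of all. It was 3 of 10 from 15.3 to 30.65, against 37.7%, and 13 of 18 from 30.65 to 61.3, against 25.7%. Above 61.3 it was 4 of 6 up to 122.6, against 17.7%, 3 of 6 up to 245.2, against 15.4%, and 0 of 1 beyond, against 7.16%. Of the 9 probe sets above the floor in the control, 9 read higher, against 51.6%, and 0 went under the floor, against 6.28%. The 9 include _x_at probe sets of Hoxa5 and Hoxc6, which can be shared between genes. Of the 39 under the floor in the control, 33 read higher, against 66.9%, and 20 passed the floor, against 20.8%. With the floor, 6 of the 29 measured probe sets reached 2-fold, against 9.22%: 2 of Hoxd8 and 1 each of Hoxd13, Hoxa11, Hoxa9 and Hoxb2.

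In the HoxD cluster all 10 probe sets of the 8 genes read higher in the Eed KO, although after quantile normalization or lowess this held for 7 of the 8 genes. Hoxd13, which patterns the digits and the genital tubercle, had a control signal just above the floor, so that its fold is a value and not a minimum. Its main probe set went from 61.6 to 316.4 (5.14-fold, with a log2 ratio of 1.62 when both probe sets were averaged). Its other probe set read 22.3 and 111.9, at least 1.83-fold. Hoxd8, active in the trunk, was also higher by both of its probe sets. They read 79.6 and 285.6 (3.59-fold) and 34.5 and 207.1 (at least 3.38-fold). Hoxd9, which with its paralogs shapes the upper limb, read 69.7 and 138.2, 1.98-fold and just short of the limit. Hoxd10, a lumbar and limb gene, went from 6.0 to 62.4, barely above the floor. The other members stayed under the floor on both arrays: Hoxd1 (17.6 and 37.6), Hoxd3 (1.7 and 36.7), Hoxd11 (38.4 and 59.5) and Hoxd12 (24.5 and 31.6). Above-floor signal in this cluster was thus found at positions 8, 9 and 13, and at position 10 as deposited but under none of the 4 other scalings.

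In the HoxA cluster 14 of 16 probe sets, and the representative probe set of each of the 9 genes, read higher, the latter becoming 7 or 8 of 9 under the other scalings. Hoxa11, needed for the forearm, the kidney and the uterus, was the gene that reached 2-fold, from 84.3 to 220.6 (2.62-fold) by its only probe set. Hoxa9, a regulator of blood progenitors, gave unequal answers. Its main probe set read 171.8 and 219.5 (1.28-fold), and its other one 38.7 and 267.9 (at least 4.37-fold), so that the gene passed 2-fold only when its probe sets were averaged (log2 ratio 1.57). Hoxa10, which acts in the uterus and the lumbar spine, was split as well. One probe set went from 19.3 to 111.3 (at least 1.82-fold) and the other from 36.6 to 30.6, under the floor on both. Hoxa13, which acts in the digits and hindgut, read 8.9 and 75.0 (at least 1.22-fold).

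Of the HoxA genes at positions 2 to 7, Hoxa5 and Hoxa3 were measured and neither reached 2-fold. Hoxa5, known for its role in the lung, read 301.4 and 375.2 by its main probe set (1.24-fold). That probe set is of the _x_at kind, which can be shared between genes. The other one read 27.3 and 67.0 (at least 1.09-fold). Hoxa3, needed for the thymus and parathyroid, read 61.8 and 104.9 by its main probe set (1.70-fold). Of its 3 other probe sets, 1 went from 30 to 78.9, 1 read 28.8 and 32.3, and 1 read 13 and 3.6. The 4 Hoxa3 probe sets therefore did not all point the same way. Hoxa2, which patterns the second branchial arch (25.9 and 30), Hoxa7 (21.9 and 24.6) and both probe sets of Hoxa4 (13.5 and 25.6, and 6.8 and 17.1) were under the floor on both arrays.

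In the HoxB cluster no member was above the floor in the control, and 6 of 9 were above it in the Eed KO. Hoxb2, a hindbrain gene that patterns facial motor neurons, read 34.8 and 149.0, at least 2.43-fold, and was the 1 gene of the cluster past 2-fold. Hoxb13, active in the tail tip and later the prostate, read 20.1 and 107.5 (at least 1.75-fold), and Hoxb9, a thoracic gene, 40.6 and 104.0 (at least 1.70-fold). Hoxb6 read 20.7 and 86.5 (at least 1.41-fold). Hoxb3 read 33.0 and 91.9 by its main probe set (at least 1.5-fold) and 10 and 11.4 by the other. Hoxb4, used to expand blood stem cells, read 48.4 and 72.2 by its main probe set and 18.6 and 96.1 by the other (at least 1.57-fold). The cluster also held 2 of the 3 genes that read lower. Hoxb1, the marker of the fourth hindbrain segment, read 54.9 and 28.0, and Hoxb7 34.1 and 11.3, while Hoxb5 read 4.1 and 4.8, all under the floor on both arrays.

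In the HoxC cluster 5 of 7 genes were measured and 0 reached 2-fold. Hoxc6, a thoracic gene, was the 1 member above the floor in the control. Its 3 probe sets read 126.7 and 209.0 (1.65-fold), 120.2 and 186.3 (1.55-fold), and 39.4 and 79.3 (at least 1.29-fold), so they pointed the same way. Hoxc10, which marks the lumbar cord, read 11.6 and 113.5 (at least 1.85-fold), and Hoxc13, a regulator of hair and nail keratins, 11.6 and 110.5 (at least 1.80-fold). Hoxc8 read 30 and 88.7 (at least 1.45-fold), and Hoxc9, which specifies thoracic motor neurons, 24.1 and 81.3 (at least 1.33-fold). Hoxc4 (33.1 and 53.6) and Hoxc5 were under the floor on both arrays. The 3 Hoxc5 probe sets disagreed, reading 28.6 and 19.6, 14.1 and 13.5, and 1.9 and 49.4.

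Probe sets of the same gene give the one kind of repeat these arrays hold. Of the 11 members with several probe sets, 8 had all of them higher in the Eed KO and 3 (Hoxa3, Hoxa10 and Hoxc5) were mixed. Taken singly, 58.1% of all non-control probe sets read higher, and 66.9% of those under the floor in the control. The share of all genes whose probe sets all read higher was not computed. Probe sets of Hoxa4, Hoxa5, Hoxc6 and Hoxd8 include _x_at or _s_at ones, which can be shared between genes. Among the 8, both probe sets of Hoxa4 and the weaker one of Hoxb3 were under the floor on both arrays, where direction has little meaning. Over all genes with several measured probe sets, the SD of a single log2 ratio was estimated from floored ratios of the 2 brightest. Raising signals to the floor draws ratios toward 0, so this SD can be too small at low signals. Grouped by the signal of the weaker probe set, the SDs were 0.54 up to 128 (1835 genes) and 0.42 from 128 to 256 (1201 genes). Against these the log2 ratios were 2.36 for Hoxd13, 1.84 for Hoxd8, 1.39 for Hoxa11 and 1.28 for Hoxb2, the last against an SD of 0.54. The log2 ratios of the other 17 measured genes, many of them minimum values, were at most 0.99 and under 2 such SDs. This spread covers technical and isoform differences, not differences between cultures.

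**Figure D3:**
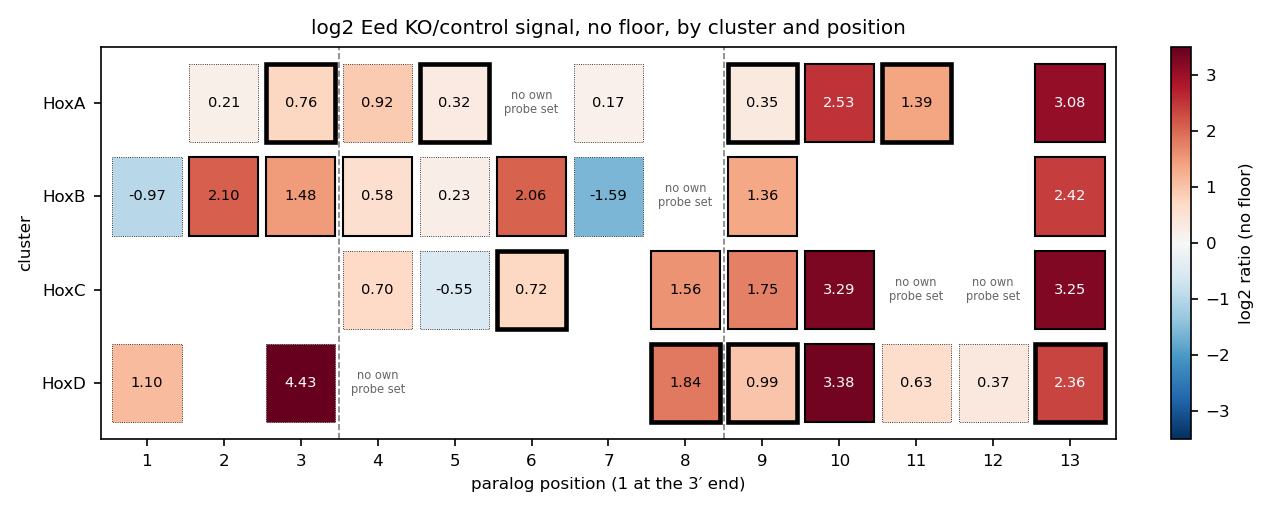
log2 ratio of Eed KO to control signal, with no floor, of the representative probe set of each Hox gene, by cluster (rows) and paralog position (columns). Thick outlines mark genes above the floor on both arrays, thin ones on the Eed KO array only, dotted ones on neither, where a ratio has little meaning; cells left blank hold no gene of this set. As deposited the 14 genes at positions 9 to 13 all read higher (13 after quantile normalization or lowess), and Hoxb1, Hoxb7 and Hoxc5 read lower.

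By position, 5′ members were more often above the floor in the Eed KO. Of 7 genes at positions 1 to 3 (anterior), 3 were measured, of 12 at positions 4 to 8 (central) 6, and of 14 at positions 9 to 13 (posterior) 12. Over all named genes, 13794 of 18193 were measured, so the posterior share was near that of the array and the other 2 were under it. Among the 25 genes under the floor in the control, 13 were above it in the Eed KO, against 25.4% of all such genes. These 13 were 2 of 6 anterior, 3 of 9 central and 8 of 10 posterior genes. Without a floor all 14 posterior genes read higher (13 after quantile normalization or lowess), with a median log2 ratio of 2.06, against 10 of 12 central genes (0.64) and 6 of 7 anterior genes (1.10). The 2-fold calls did not sort by position, with 1 anterior (Hoxb2), 1 central (Hoxd8) and 2 posterior genes (Hoxa11 and Hoxd13). The difference between positions was not tested, since genes are not replicates and probe sets differ in sensitivity. A floor at the 25th percentile (29.7) gave 3 of 3 anterior, 1 of 5 central and 8 of 8 posterior genes, and one at the 60th (168.2) gave 0 of 7, 2 of 11 and 2 of 13. Over all named genes the share was 39.2% with the lower and 11.7% with the higher of these floors.

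**Figure D4:**
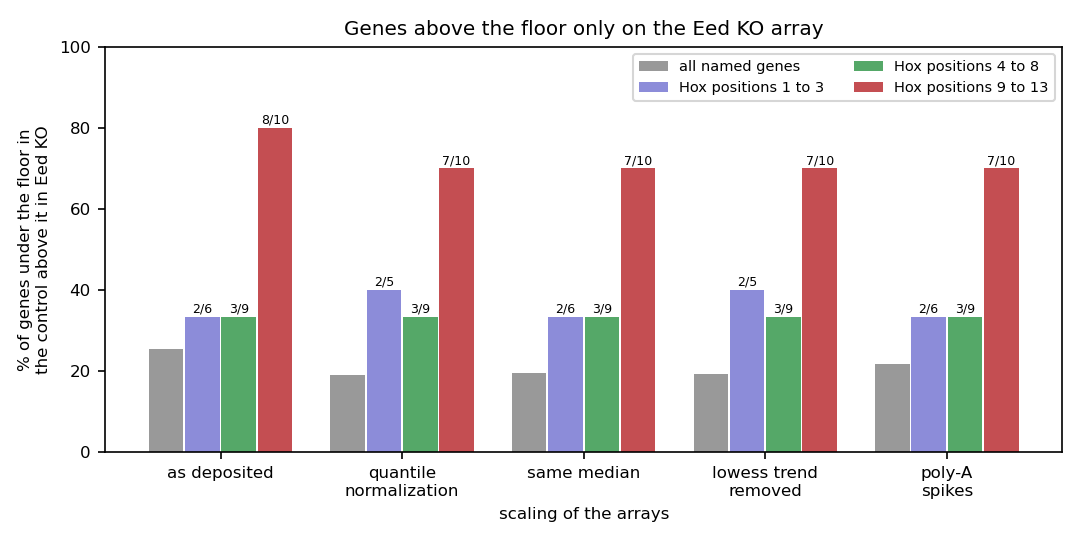
Percentage of genes under the floor on the control array that were above it on the Eed KO array (y axis), under 5 scalings of the arrays (x axis), for all named genes and for Hox genes at 3 ranges of position. Labels give the counts, with 8 of 10 posterior genes as deposited and 7 of 10 under each other scaling, at a floor near 61.3.

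Hox proteins bind DNA with cofactors of the TALE homeodomain class, Pbx, Meis and Pknox. Of 7 measured cofactor genes 2 passed 2-fold upward and 0 downward, against 10.8% and 3.27% of all measured genes. Under each other scaling Meis2 alone passed upward, and with equal medians Pbx2 passed downward. Meis2 read 48.2 and 416.9 (at least 6.80-fold), and its 3 other probe sets, under the floor in the control, read 101.3 to 335.4 in the Eed KO. Meis1 read 68.5 and 148.5 (2.17-fold), with 2 further probe sets at 39.5 and 83.1, and at 29.9 and 93.9. It was under 2-fold in 7 of 9 alternatives, down to no difference with the floor at the 60th percentile. Pknox2 read 34.7 and 113.3 (at least 1.85-fold), and Pbx2, the bright Pbx gene of these cells, 1128.3 and 662.6 (1.70-fold lower), with other probe sets at 308.9 and 236.2 and at 217.7 and 245.2. The median log2 ratio of the 7 was 0.41, against 0.12 over all measured genes.

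Genes that switch Hox clusters on or maintain them were described in the same way. Of 11 measured regulators 1 was at least 2-fold higher and 0 were lower, against 10.8% and 3.27% of all measured genes. The 1 was Gdf11, a trunk-to-tail signal (4.1 and 131.1, at least 2.14-fold, and under 2-fold in 5 of 9 alternatives). The median log2 ratio of the 11 was -0.16. Under the other scalings 0 were called higher, and with equal medians Rarg was called lower. Cyp26b1, which degrades retinoic acid, read 43.7 and 121.9 (at least 1.99-fold), and the retinoic acid receptor gene Rarg 1756.0 and 1060.8 (1.66-fold lower). The Cdx factors, which open the central and posterior Hox genes, had signals under or near the floor. Cdx1 read 93.3 and 9.4 (at least 1.52-fold lower), and Cdx2 and Cdx4 were under the floor on both arrays. They stand beside Gsx1, Gsx2 and Pdx1 in the ParaHox group, of whose 6 genes 5 were under the floor on both arrays. Kmt2a and Kmt2b, the trithorax methyltransferases that keep Hox genes active, read 558.9 and 514.9, and 1342.5 and 996.6. Of 15 measured genes of PRC2 and its readers (median -0.10), 1 was called higher and 0 lower, against 10.8% and 3.27%. The 1 was Cbx8 (70.1 and 140.2, exactly at 2-fold). Its other probe set read 35.8 and 22.4. Under the other scalings 0 were called higher, and Cbx7 was called lower with equal medians and with poly-A scaling. Cbx7 fell from 2239.2 to 1247.8 by its main probe set, but its others rose slightly (735.5 and 814.9, 57.5 and 69.1). Averaging them left Cbx7 at a log2 ratio of -0.14. Suz12 went from 3756.9 to 6565.6 by its main probe set (1.75-fold), and each of its other probe sets rose too. Averaging brought Suz12 past the 2-fold limit (log2 ratio 1.19).

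**Figure D5:**
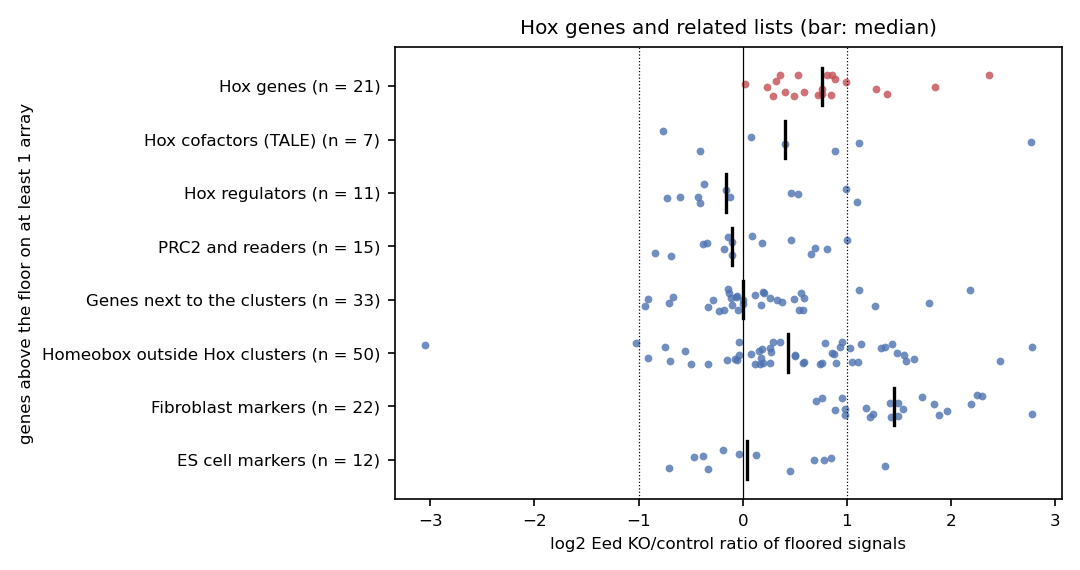
log2 ratio of Eed KO to control, from floored signals (x axis), of each measured gene of the Hox set and of related lists (rows); bars are medians and dotted lines mark 2-fold. Hox genes had a median of 0.76, homeobox genes outside the clusters 0.43, genes next to the clusters 0.01 and fibroblast markers 1.46. Genes over the floor in the Eed KO alone had to lie above 0.

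Homeobox genes outside the Hox clusters, many of them also PRC2 targets, were counted too. Of 50 measured genes, 26 of them above the floor on both arrays, 13 reached 2-fold upward and 2 downward (median log2 ratio 0.43). These counts stand against 10.8% and 3.27% of all measured genes, and beside 4 and 0 of 21 Hox genes (0.76). The 13 included the limb mesenchyme gene Prrx1 (136.1 and 931.4), also a fibroblast marker, the eye gene Vax2 (68.2 and 378.2) and Msx2 (118.5 and 369.9), and the lower ones Gbx2 (1582.7 and 191.2) and Otx2 (1424.7 and 698.7), which meet at the midbrain-hindbrain boundary and of which Otx2 was named after its values were seen. Under the other scalings 9 to 11 were higher, against 6.35% to 8.07% of all measured genes, and 3 or 4 lower. Of the 21 Hox genes, 13 were above the floor in the Eed KO alone and had to show a ratio above 1. Direction is therefore not compared between the lists, and the difference between them was not tested.

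The genes on either side of each cluster were compared because they share the chromosome but lie outside the Hox block. Hox clusters arose by duplication of a larger segment, so their flanks hold sister genes such as Skap1 and Skap2, Evx1 and Evx2, or Cbx1, Cbx3 and Cbx5. Of the 5 protein-coding genes on each side, 38 of 40 had a probe set and 33 were measured. Their median log2 ratio was 0.01, with 4 at least 2-fold higher and 0 lower, against 10.8% and 3.27% of all measured genes. The 4 were 3 genes beside HoxB on chromosome 11 and 1 beside HoxD on chromosome 2. Calcoco2, an autophagy receptor on the Hoxb13 side, read 707.7 and 3214.1 (4.54-fold). On the Hoxb1 side, Copz2, a coat protein gene, read 53.8 and 212.3 (at least 3.46-fold, falling to 0.34 as a log2 ratio under the floor of 168.2), and Nfe2l1, a proteasome gene regulator, 1101.3 and 2382.4 (2.16-fold, with a log2 ratio of 0.81 once medians were equalised and under 2-fold in 2 of 9 alternatives). Lnpk, which lies beyond Evx2 on the Hoxd13 side and is active with Hoxd13 in the digits, read 418.1 and 1005.5 (2.40-fold, with a log2 ratio of 0.68 when its 3 probe sets were averaged and under 2-fold in 2 of 9 alternatives).

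Of the 8 genes right next to a cluster, 7 read higher in the Eed KO without a floor, against 59.0% of all named genes. With the floor 0 reached 2-fold, against 10.8% of all measured genes. Skap2, next to the 3′ end of HoxA, read 1593.9 and 1536.5, and Skap1, next to Hoxb1, 14.6 and 70.5 (at least 1.15-fold). Evx1, beyond Hoxa13, was under the floor on both arrays (17.4 and 54.7), and Evx2, beyond Hoxd13, read 54.2 and 86.2 (at least 1.41-fold). Mtx2, next to Hoxd1, read 1602.3 and 2401.0, and Ttll6, next to Hoxb13, 146.5 and 215.5. Beside HoxC, Calcoco1 read 332.2 and 497.7 and Smug1 356.9 and 427.4.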

How the data were processed

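Total RNA of 2 mouse ES cell samples, extracted with Trizol and RNeasy columns per the labels, was hybridized to 1 Affymetrix array each. Each deposited column holds linear intensities, 1 per probe set, from MAS5 (no version given) per the submitters' processing notes. The authors' scaling was found in the values: trimmed of 2% at either end, the mean over 45101 probe sets came to 500.00 on both arrays. Low signals are the least certain, and the table used here holds no detection calls.

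Of the probe sets, 34945 had 1 symbol, 932 several and 9160 none in the platform annotation, and 64 were manufacturer's controls. Through gene IDs, 34741 matched the RefSeq table of GRCm38.p6, which changed 0 symbols. Ratios were taken from signals raised to the floor of 61.3 unless said to be without a floor. With 1 array per group there is no test, and the number of arrays limits the precision. Members and lists were chosen with earlier results of these data known. All members are named. Beyond them, up to 4 genes of each list with the largest differences, Eed, and flanking genes past 2-fold are named, and other genes were named as examples after their values were seen. As alternatives the arrays were quantile normalized, given equal medians, freed of a lowess trend (span 0.3) or scaled on 24 poly-A spike probe sets. The floor was moved to the 25th or the 60th percentile or replaced by a pseudocount of 50, probe sets of a gene were averaged, those named _x_at or _s_at, which can be shared between genes, were left out, and 1.5-fold or 3-fold was required. Python 3.11.15 with pandas 2.3.3 and statsmodels 0.14.6 was used.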

Additional observations from a re-analysis of the deposited data

How the results depend on the processing

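The count of Hox genes at least 2-fold higher was 4 as deposited, against 10.8% of all measured genes. It was 4, the same genes, after quantile normalization, equalised medians, lowess or poly-A scaling, against 6.35% to 8.07%. Without shared probe sets it was again these 4, against 10.6%, and with probe sets averaged 5, against 10.2%. It was 15 of 29 measured genes with the floor at the 25th percentile, 0 of 6 with it at the 60th, 10 of 21 with the pseudocount, 12 at 1.5-fold and 2 (Hoxd8 and Hoxd13) at 3-fold, beside 14%, 7.82%, 9.05%, 23.3% and 3.53% of all measured genes. The count of genes at least 2-fold lower was 0 under each of these. The count of probe sets reading higher was 36 to 39 of 48 under the other scalings and 37 of 43 without shared probe sets. By gene it was 26 to 29 of 33 under these scalings, against 42.9% to 52.4% of all named genes. The median log2 ratio of the members was 0.65 to 1.36, at its lowest with the pseudocount, where it was 0.10 over all genes. Hoxb1 was measured, with a ratio below 1, after quantile normalization and removal of the lowess trend, and so were Hoxb1 and Hoxb7 with the floor at the 25th percentile. Hoxd13, Hoxd8, Hoxa11 and Hoxb2 fell under 2-fold in 1 of 9 alternatives each, the floor at the 60th percentile (log2 ratios 0.91, 0.76, 0.39 and 0.00). No paired analysis was possible because each group has 1 array, and no array could be left out.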

Other observations

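Noncoding transcripts of the clusters had their own probe sets. Hoxb5os, antisense to part of HoxB, went from 39.2 to 108.5 (at least 1.77-fold). Hoxd3os1 read 63.7 and 61.5 by its main probe set and was under the floor on both arrays by its other one. Both Hoxa11os probe sets were under the floor on both arrays.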
